A study of Mus musculus with 8 samples.

Results

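The genes examined here are the 10 that encode the core of the TAK1 and p38 mitogen-activated protein kinase (MAPK) branch of TGF-beta signalling: Traf6, Map3k7, Tab1, Tab2, Map2k3, Map2k6, Mapk14, Mapk11, Mapk12 and Mapk13. They were chosen by name, and each was read through the brightest of its probe sets, so that 10 of the 18193 genes measured on the arrays are described. The cells were primary mesenchymal cells grown from the palate of C57BL/6J mouse embryos at embryonic day 13.5 and taken after 2 passages in standard DMEM medium. The mutant group had the genotype Tgfbr2 fl/fl; Wnt1-Cre (4 arrays) and the control group Tgfbr2 fl/fl without Cre (4 arrays). By these genotypes both groups carried the floxed alleles, while the sample titles call the controls Tgfbr2 wildtype. Wnt1-Cre recombines in neural crest cells and their descendants, and a cell of another origin in the same dish keeps the receptor gene. The labels do not say whether the 4 samples of a genotype came from separate embryos, so the p-values speak only of the spread among these samples, part of which may be technical.

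TGF-beta binding to its receptors activates Smad proteins and, beside them, a kinase cascade without Smads. In that cascade the ubiquitin ligase TRAF6 is recruited to the type I receptor and builds ubiquitin chains, which bring together the kinase TAK1 (encoded by Map3k7) and its partners TAB1 and TAB2. TAK1 phosphorylates the kinases encoded by Map2k3 and Map2k6, and these activate the p38 kinases: p38 alpha (Mapk14), p38 beta (Mapk11), p38 gamma (Mapk12) and p38 delta (Mapk13). The cascade is switched by phosphorylation, which an expression array does not measure. The same kinases also serve cytokine and Toll-like receptor signalling in macrophages.

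Array values are log2 intensities, on which a difference of 1 is a factor of 2 in brightness. All 10 genes were brighter than the median of all values (6.93) on each of the 8 arrays. None passed the test between genotypes (limma, Benjamini-Hochberg adjusted p under 0.05 over all genes), a threshold that 16 genes, 0.0879% of those tested, did pass. At an unadjusted p under 0.05 there were 2 members, Mapk12 and Mapk11, both lower in mutant cells, where 15.5% of all genes reached that level 9.69% as lower and 5.84% as higher genes. For 1 member, Mapk12, every array of 1 genotype lay below every array of the other, which held for 8.07% of all genes and in that direction for 5.18%. Of the 10 differences 6 were negative and 4 positive, with a median of -0.099 beside -0.0078 over all genes. The counts for the 10 genes lie near those backgrounds.

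Facts of the whole set of arrays bear on what follows. Macrophage and leukocyte markers were bright in every culture: of 21 markers 20 lay above the median of all values on all 8 arrays, and all 21 differed upwards in mutants (median 0.89) with 0 past the test and 5 at an unadjusted p under 0.05. Their mean per array ran from 11.03 to 13.17 in mutants and from 10.93 to 12.54 in controls. It was 13.15, 13.13 and 13.17 in mutants 1, 2 and 3 and only 11.03 in mutant 4, and it was 12.32 and 12.54 in controls 1 and 2 against 11.08 and 10.93 in controls 3 and 4. General mesenchymal and fibroblast markers were bright on all arrays (11 of 11, array means 12.70 to 13.42). Of 6 palatal mesenchyme markers 3 were above that median throughout (array means 7.93 to 8.88). So were 3 of 10 epithelial, 1 of 7 endothelial, 2 of 8 skeletal muscle and 3 of 5 neuronal and glial markers. In such mixed cultures more cells of a type and more RNA per cell cannot be told apart. Spike-in controls for hybridisation (bioB) separated replicates 1 and 2 of both genotypes (6.34 to 6.52) from replicates 3 and 4 (8.24 to 8.79). The labels name no batch; the split was drawn from these spike-ins alone, and its sides are called the low-bioB and high-bioB arrays. Tgfbr2 itself read 12.42 ± 0.47 in mutants and 12.04 ± 0.40 in controls (SD, n = 4). Its difference was 0.37 (SE 0.27, adjusted p = 0.538 in limma), with -0.036 when the macrophage marker mean was in the model and 0.60 without mutant 4. The position of its probes against the floxed part of the gene is not known here, so these values say nothing about the labels.

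The p38 kinases differed among themselves in sign. Mapk12 and Mapk11 were lower in mutant cells, Mapk14 was higher, and Mapk13 differed least. Mapk12, which encodes p38 gamma, an isoform best known from muscle, had log2 intensities of 7.78, 8.39, 8.04 and 8.64 in mutants 1 to 4 and of 8.91, 8.87, 8.80 and 9.01 in controls 1 to 4. Every mutant array was below every control array, and the mutants were spread over 0.38 (SD) where the controls were spread over 0.087 (SD, n = 4 each). The mean difference was -0.68 (SE 0.18, 95% interval -1.09 to -0.28), or 1.61-fold lower, with unadjusted p = 0.0042 and adjusted p = 0.187 in limma. Mapk12 passed the threshold with arrays weighted by their quality (-0.77, adjusted p = 0.0271), in the low-bioB arrays alone (-0.80, adjusted p = 0.0472) and without mutant 4 (-0.83, adjusted p = 0.0238), in fits where 8.08%, 11.5% and 7.23% of all genes passed.

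Mutant 4 was the mutant with the highest Mapk12 value and the lowest macrophage marker mean. When the marker mean was added to the model, the Mapk12 difference was -0.52 (adjusted p = 0.194 in limma). Controls 1 and 2, at marker means of 12.32 and 12.54, read 8.91 and 8.87, and controls 3 and 4, at 11.08 and 10.93, read 8.80 and 9.01. The dimmer of the 2 Mapk12 probe sets read 6.99 ± 0.10 in mutants and 7.02 ± 0.096 in controls (SD, n = 4) and differed by -0.026, so the probe sets of Mapk12 disagree. With both averaged the difference was -0.36.

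Mapk11 encodes p38 beta, a close relative of p38 alpha. Mutants 1 to 4 read 7.42, 7.59, 7.68 and 8.19, and controls 1 to 4 read 8.05, 7.93, 8.59 and 8.46. Mutant 4 lay above controls 1 and 2, so the groups overlapped through that array. The difference was -0.54 (SE 0.20, with the upper end of the 95% interval at -0.076), or 1.45-fold lower, with unadjusted p = 0.0275 and adjusted p = 0.270 in limma. In the low-bioB arrays it was -0.49 (adjusted p = 0.0334) and in the high-bioB arrays -0.59 (adjusted p = 0.819). The arrays lowest in Mapk11, mutants 1, 2 and 3, are those with the highest macrophage marker means, and with that mean in the model the difference was -0.25 (adjusted p = 0.254). The second, dimmer probe set of Mapk11 differed by -0.11 (SE 0.082).

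**Figure D1:**
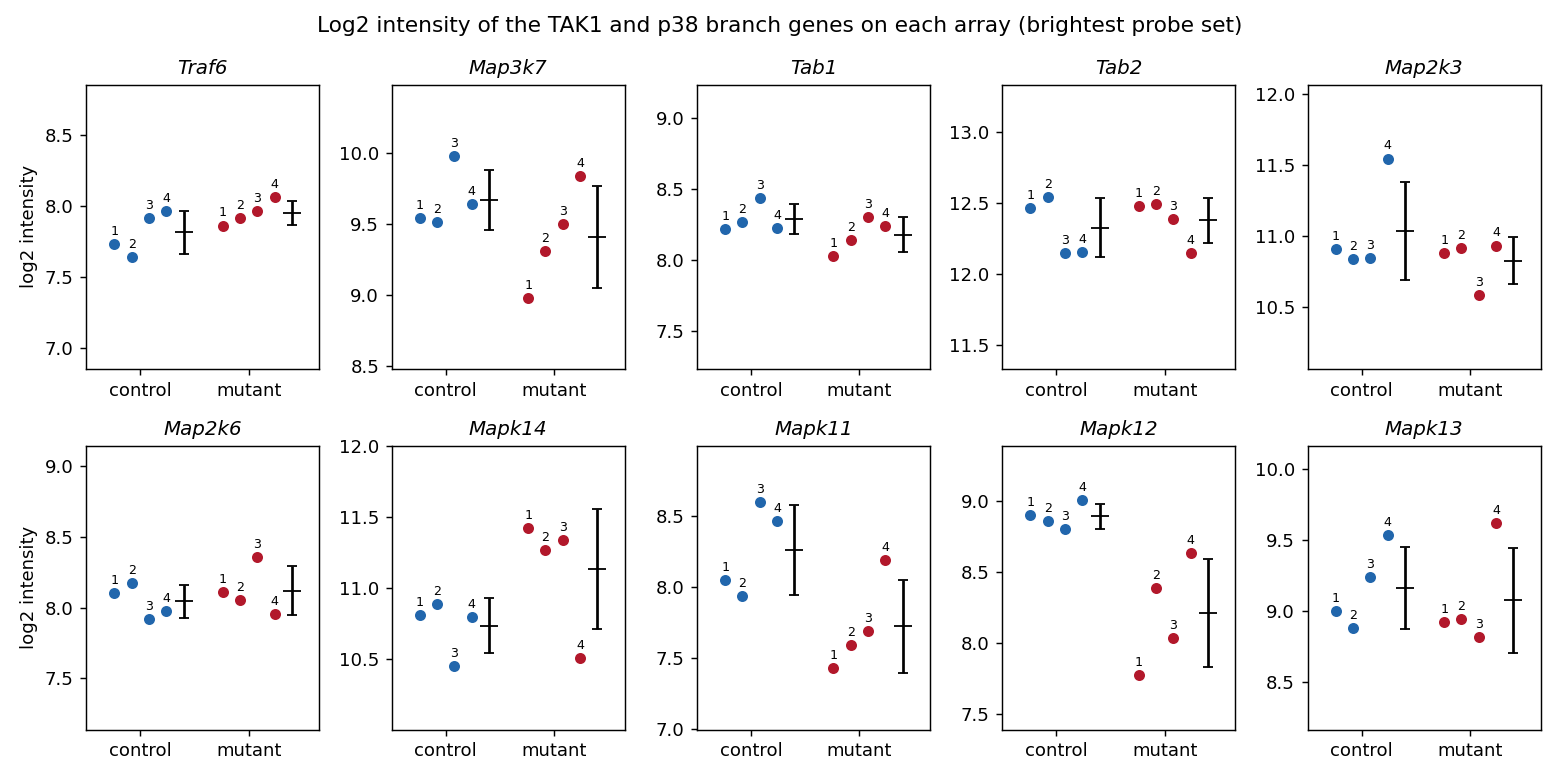
Log2 intensity of each of the 10 genes on the 4 control (blue) and 4 mutant (red) arrays, numbered by replicate, with the mean and SD of each group beside the points; every panel spans at least 2 log2 units. Mapk12 shows mutants (7.78 to 8.64) wholly below controls (8.80 to 9.01), and mutant 4 departs from mutants 1, 2 and 3 in Mapk14, Mapk11 and Mapk13.

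Mapk12 and Mapk11 are next to each other on chromosome 15 of the GRCm38.p6 assembly with no protein-coding gene between them, and Mapk14 and Mapk13 likewise on chromosome 17. The neighbours on chromosome 15 were the pair with the lowest differences, while those on chromosome 17 differed by 0.40 and -0.089. The 250 bases before the RefSeq start of each gene of the lower pair are shown so that their flanks can be compared, with capitals marking GC boxes (GGGCGG) and SMAD boxes (CAGAC) found on either strand. The Mapk12 flank lies on the minus strand at chr15:89140704-89140953, and the Mapk11 flank on the minus strand at chr15:89149607-89149856, both read 5′ to 3′ in the direction of the gene. The span that RefSeq gives for Mapk12 reaches further upstream than the start used here, so its flank lies within that span.
Mapk12: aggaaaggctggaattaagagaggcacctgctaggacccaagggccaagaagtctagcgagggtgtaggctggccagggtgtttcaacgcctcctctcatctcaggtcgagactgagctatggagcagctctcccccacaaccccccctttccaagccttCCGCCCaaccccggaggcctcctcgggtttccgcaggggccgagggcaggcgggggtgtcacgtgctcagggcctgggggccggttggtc
Mapk11: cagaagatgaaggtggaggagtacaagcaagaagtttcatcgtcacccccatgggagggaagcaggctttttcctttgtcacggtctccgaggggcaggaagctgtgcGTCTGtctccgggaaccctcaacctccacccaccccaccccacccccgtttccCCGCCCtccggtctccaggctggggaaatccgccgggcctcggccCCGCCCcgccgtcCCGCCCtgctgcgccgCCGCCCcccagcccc
Both flanks are rich in G and C (64.4% for Mapk12 and 68.0% for Mapk11). The GC box occurred 1 time in the Mapk12 flank and 4 times in the Mapk11 flank, and 32.7% of 32851 flanks of the same length held it. The SMAD box occurred 1 time in the Mapk11 flank and 0 times in that of Mapk12, against 42.2% of all flanks. An AP-1 site (TGANTCA, 6.75% of flanks) and a cyclic AMP response element (TGACGTCA, 1.55% of flanks), the letters bound by transcription factors that p38 and its relatives phosphorylate, occurred in neither. These are matches of letters and were not measured for binding.

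Mapk14 encodes p38 alpha, the most widely expressed isoform and the form with the main part in inflammatory signalling. Its brightest probe set read 11.43, 11.27, 11.34 and 10.51 in mutants 1 to 4 and 10.81, 10.89, 10.45 and 10.80 in controls 1 to 4. Mutants 1, 2 and 3 lay above all controls, and mutant 4 lay among them, between controls 3 and 4. The difference was 0.40 (SE 0.21, 95% interval -0.074 to 0.87), or 1.32-fold higher, with unadjusted p = 0.0879 and adjusted p = 0.387 in limma. It was 0.50 (adjusted p = 0.0279) in the low-bioB arrays, 0.30 (adjusted p = 0.877) in the high-bioB arrays and 0.61 (adjusted p = 0.0302) without mutant 4. This probe set was highest in the 3 mutants with macrophage marker means above 13. Among controls it did not follow the markers throughout: control 4, at a marker mean of 10.93, read 10.80 and control 1, at 12.32, read 10.81. With the marker mean in the model the difference was 0.13 (adjusted p = 0.648 in limma). All 21 markers differed upwards in mutants, so that term can also take up part of a genotype difference.

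A second probe set of Mapk14, chosen for mention after its values were seen, gave a different array pattern. It read 8.82, 8.67, 9.10 and 8.63 in mutants 1 to 4 and 8.12, 8.14, 8.29 and 8.31 in controls 1 to 4. All mutants, mutant 4 included, were above all controls. The difference was 0.59 (SE 0.12), with unadjusted p = 0.00078 and adjusted p = 0.176 in limma over 34945 named probe sets, of which 1, or 0.00286%, passed. It was 0.61 and 0.57 within the low-bioB and high-bioB arrays and 0.57 with the marker mean in the model. This probe set passed in the low-bioB arrays (adjusted p = 0.0139), with array weights (0.64, adjusted p = 0.0279) and without mutant 4 (0.65, adjusted p = 0.0298), where 9.93%, 3.99% and 5.06% of probe sets passed. The other 4 probe sets of Mapk14 differed by 0.095 to 0.17, so all 6 were positive.

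Mapk13 encodes p38 delta and was read by 1 probe set. It ranged from 8.82 to 9.62 in mutants and from 8.88 to 9.54 in controls, with a difference of -0.089 (95% interval -0.56 to 0.38, adjusted p = 0.870 in limma). Mutant 4 (9.62) and control 4 (9.54) were the highest arrays of their groups. The sign was positive without control 4 (0.035) and with the marker mean in the model (0.22).

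**Figure D2:**
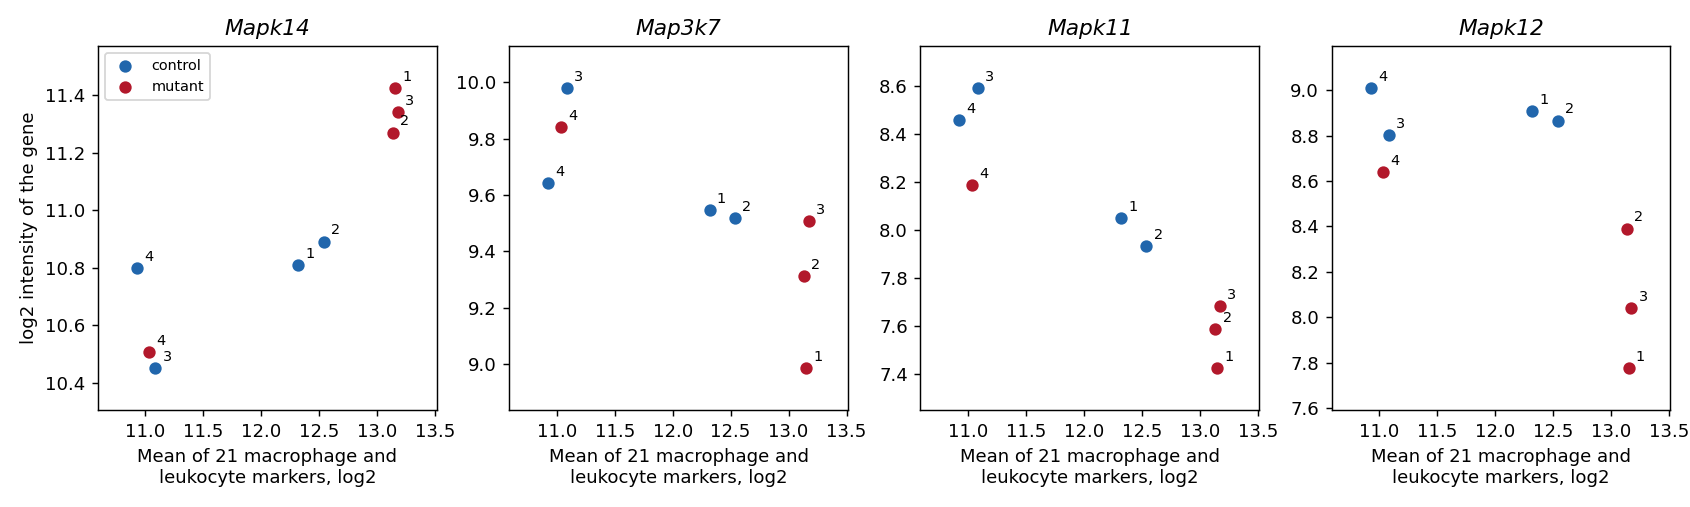
Log2 intensity of Mapk14, Map3k7, Mapk11 and Mapk12 (vertical axes) against the mean log2 intensity of 21 macrophage and leukocyte markers on the same array (horizontal axes), with controls in blue, mutants in red and replicate numbers beside the points. Mutant 4, at a marker mean of 11.03, lies near controls 3 and 4 for Mapk14 and Map3k7, and controls 1 and 2, at 12.32 and 12.54, read 8.91 and 8.87 for Mapk12.

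Map3k7, the gene of TAK1 itself, was lower in mutant cells on all of its 6 probe sets, with differences from -0.43 to -0.056, and passed the adjusted threshold on 0 of them. The brightest read 8.98, 9.31, 9.51 and 9.84 in mutants 1 to 4 and 9.55, 9.52, 9.98 and 9.64 in controls 1 to 4. Mutant 4 was above 3 of the 4 controls, so the groups overlapped. The difference was -0.26 (SE 0.19, 95% interval -0.69 to 0.17), with adjusted p = 0.533 in limma, and with the marker mean in the model -0.047.

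Some dimmer probe sets of Map3k7, singled out after their values were seen, had larger differences than the brightest. The fourth in brightness read 6.92, 6.71, 6.91 and 6.95 in mutants and 7.54, 7.01, 6.95 and 7.70 in controls, which did not overlap, although mutant 4 and control 3 differed by less than 0.01. It differed by -0.43 (SE 0.18, unadjusted p = 0.0387, adjusted p = 0.321 in limma), and by -0.37 with the macrophage covariate. The third differed by -0.33 (SE 0.13, unadjusted p = 0.0316, adjusted p = 0.304 in limma) and by -0.19 with the covariate. Its groups overlapped, with mutant 4 at 8.78 and control 2 at 8.72. The second differed by -0.35 (SE 0.18), and the dimmest, at means of 6.11 and 4.44, by -0.056 and -0.12. Among the 29 probe sets of the 10 genes, 5 had an unadjusted p under 0.05 and 3 did not overlap, beside 14.5% and 7.64% of all named probe sets.

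The partners of TAK1 differed by less than the spread between arrays. Tab1, which encodes the activating subunit bound to TAK1, ranged from 8.03 to 8.31 in mutants and from 8.22 to 8.44 in controls, with a difference of -0.11 (SE 0.089, 95% interval -0.31 to 0.096). Tab2, whose protein ties TAK1 to ubiquitin chains, ranged from 12.15 to 12.50 in mutants and from 12.15 to 12.55 in controls, with a difference of 0.051 (SE 0.12, 95% interval -0.24 to 0.34). The 95% interval of this Tab2 probe set ran from a 1.18-fold fall to a 1.26-fold rise. The second, dimmer probe set of Tab2 differed by 0.12 (SE 0.16, 95% interval -0.24 to 0.48). For both genes the ranges of the genotypes overlapped, and adjusted p was 0.593 and 0.878 in limma. With the marker mean in the model Tab1 differed by -0.070 and Tab2, with its sign turned, by -0.11.

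Traf6, the ubiquitin ligase at the top of the cascade, read 7.86, 7.92, 7.97 and 8.07 in mutants 1 to 4 and 7.74, 7.64, 7.91 and 7.97 in controls 1 to 4. Mutant arrays lay toward the top, and controls 3 and 4 overlapped them. The difference was 0.14 (SE 0.094, 95% interval -0.077 to 0.35, adjusted p = 0.512 in limma), and 0.24 with the marker mean in the model. In the fit of all arrays all 5 probe sets of Traf6 were positive, by 0.026 to 0.19.

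The kinases between TAK1 and p38 did not separate the genotypes. Map2k3 (MKK3) ranged from 10.58 to 10.93 in mutants and from 10.84 to 11.55 in controls, with a difference of -0.21 (SE 0.17, 95% interval -0.60 to 0.18, adjusted p = 0.594 in limma). Control 4, at 11.55, stood apart from the other controls at 10.84 to 10.91, and without it the difference was -0.037. The second probe set of Map2k3 had control 4 as its highest array too (10.24, with the other 3 controls at 9.31 to 9.48). Map2k6 (MKK6) ranged from 7.95 to 8.36 in mutants and from 7.92 to 8.17 in controls, with a difference of 0.076 (SE 0.11, 95% interval -0.17 to 0.32, adjusted p = 0.768 in limma). With the marker mean in the model Map2k3 differed by -0.082 and Map2k6, with its sign turned, by -0.029.

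**Figure D3:**
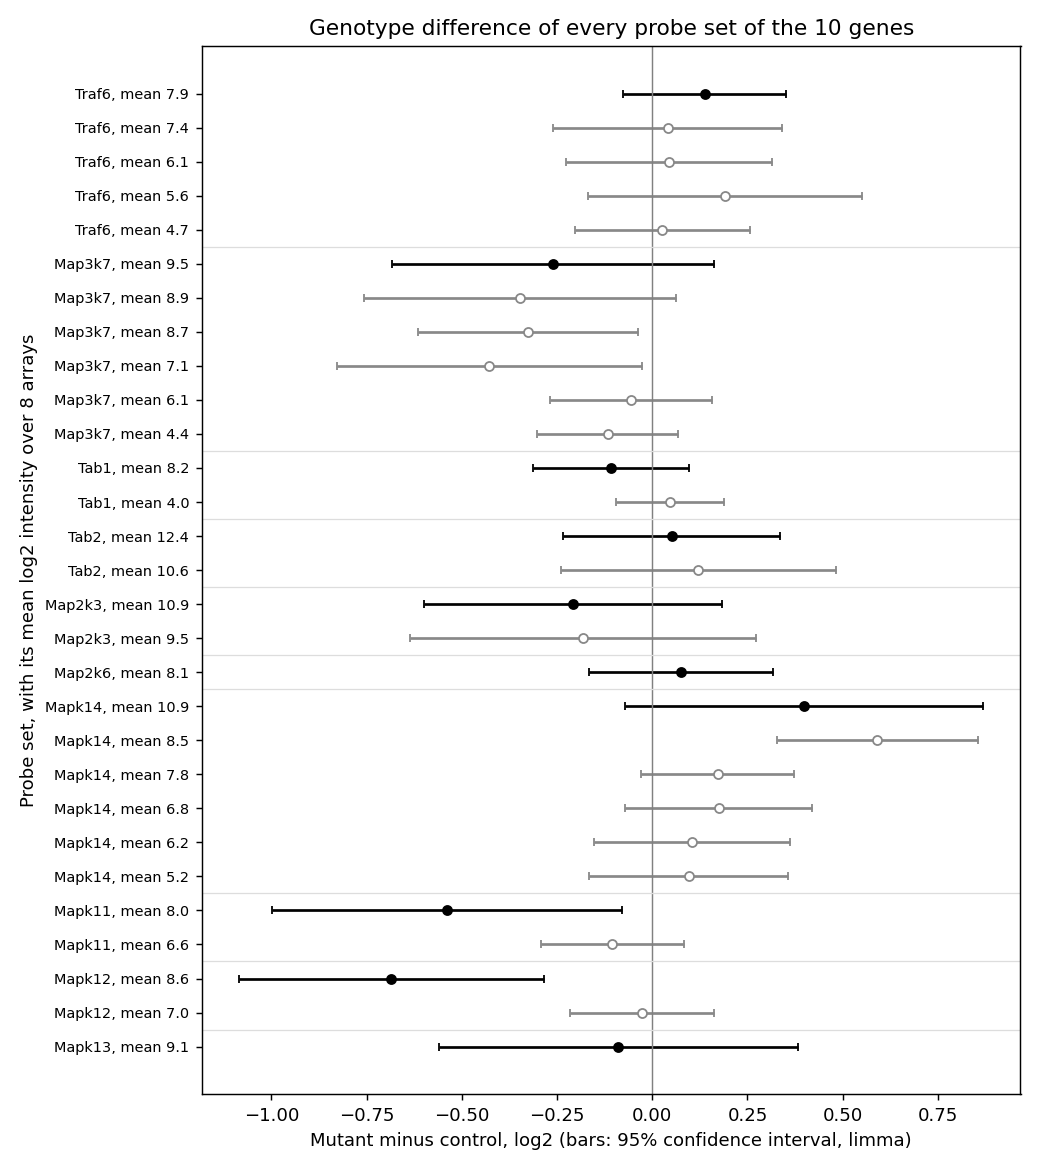
Mutant minus control log2 difference with its 95% confidence interval (limma) for all 29 probe sets of the 10 genes, ordered from TRAF6 to the p38 kinases, with the brightest probe set of each gene in black and filled and the others open. The 6 probe sets of Map3k7 are all negative and the 6 of Mapk14 all positive, while the dimmer probe sets of Mapk11 and Mapk12 lie near 0.

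Of the 19 further probe sets, 18 had the sign of the brightest probe set of their gene, the exception being the dimmer probe set of Tab1. How often this holds over all genes was not computed, and all probe sets share the same 8 arrays. Means below the median of all values were found for 3 of Mapk14, 3 of Traf6, 2 of Map3k7, 1 of Mapk11 and 1 of Tab1. In the low-bioB arrays dimmer probe sets turned sign for Map3k7 (0.051), Traf6 (-0.014) and Mapk12 (0.025). In the high-bioB arrays they did so for Mapk14 (-0.061), Traf6 (-0.029 and -0.023) and Mapk11 (0.0089). Across arrays Map3k7 and Mapk14 mirrored each other: mutants 1, 2 and 3 held the 3 highest Mapk14 values and the 3 lowest Map3k7 values, and control 3 the lowest Mapk14 and the highest Map3k7. The genes whose log2 values ran most like Map3k7 over the 8 arrays were Ephb4, an ephrin receptor (Pearson correlation 0.996), Phf13, a chromatin protein (0.993), and Ext2, an enzyme of heparan sulfate synthesis (0.992). Those most like Mapk14 were Tpd52 (0.999), Gab2, a signalling adaptor (0.990), and Herc3, which encodes a HECT-type ubiquitin ligase (0.988). These are the highest among 9089 genes with 8 points each. All points share the arrays and the differences in macrophage markers between them, so the values describe likeness only.

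Around the cascade, 10 lists with 97 measured genes (110 listed) were read from the same fit. None of the 97 passed over all genes in limma (smallest adjusted p = 0.167). At an unadjusted p under 0.05 there were 14, 10 higher and 4 lower, which is 14.4% beside 15.5% of all genes. By direction, 5.84% of all genes were higher and 9.69% lower, the shares to set beside the counts of each list below. The genotypes did not overlap for 6 genes, 6.19% beside 8.07%, and the median difference was -0.0097 beside -0.0078 over all genes.

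Other kinases that feed p38 and JNK, 15 genes, had a median of 0.042, with 7 negative and 8 positive. Map3k10, the mixed-lineage kinase MLK2, read 9.71, 9.77, 9.80 and 9.85 in mutants 1 to 4 and 10.09, 10.10, 10.04 and 10.15 in controls 1 to 4. The genotypes were apart with little spread, and the difference was -0.31 (SE 0.066, unadjusted p = 0.00127, adjusted p = 0.167 in limma) and -0.29 with the macrophage covariate. Map3k8, the kinase TPL2 that links Toll-like receptors to ERK, read 10.08, 9.86, 10.16 and 10.34 in mutants and 9.66, 9.35, 9.55 and 8.86 in controls. All mutants were above all controls by 0.76 on average (SE 0.18, adjusted p = 0.187), and by 0.76 with the covariate. Map3k1 differed by 0.87 (SE 0.47), and by 0.19 with the covariate.

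Among the targets of p38, the 6 measured kinases had a median of 0.13 and none at an unadjusted p under 0.05. Mapkapk5 differed by -0.18 (SE 0.089), Rps6ka5, the histone kinase MSK1, by 0.35 (SE 0.23) and Mknk2 by 0.24 (SE 0.16). With the macrophage covariate these were -0.10, 0.0096 and 0.054. Of 11 transcription and mRNA-decay factors (median -0.0083, and 0.038 after quantile normalisation), 2 were higher at an unadjusted p under 0.05. Zfp36, the mRNA-destabilising protein tristetraprolin that p38 signalling controls, read 9.78, 9.77, 9.78 and 9.98 in mutants and 8.91, 8.998, 9.11 and 9.61 in controls. Its groups did not overlap, and the difference was 0.67 (SE 0.15, adjusted p = 0.187 in limma). Zfp36 differed by 0.82 with the macrophage covariate and passed without control 4 (0.82, adjusted p = 0.0364), where 0.17% of genes passed. Mef2a differed by 0.64 (SE 0.25) and Elk1 by -0.32 (SE 0.14), and by 0.27 and -0.17 with the covariate. The 10 phosphatases that switch off p38 and JNK had a median of -0.033 and 0 at an unadjusted p under 0.05, with Ppm1a at -0.16 (SE 0.080), Dusp2 at 0.25 (SE 0.16) and Dusp10 at -0.26 (SE 0.25). With the covariate Ppm1a was at -0.11, Dusp2 at 0.072 and Dusp10, with its sign turned, at 0.052; without control 4 Dusp10 was at -0.031.

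Around TAK1, 13 measured partners and ubiquitin ligases had a median of 0.010 and 0 at an unadjusted p under 0.05. Traf2 differed by -0.25 (SE 0.11), Traf4 by -0.76 (SE 0.38) and Xiap, an inhibitor of apoptosis that binds TAB1, by 0.32 (SE 0.18). With the macrophage covariate Traf2 was at -0.28, Traf4 at -0.20 and Xiap at 0.057. Traf2 was at -0.46 in the low-bioB arrays and at -0.043 in the high-bioB arrays. The 10 deubiquitinases and inhibitors had a median of 0.11, with 2 higher at an unadjusted p under 0.05. Usp18, an interferon-induced protease also reported to act on TAK1, read 11.93, 11.41, 12.15 and 11.83 in mutants and 10.87, 10.91, 9.85 and 9.43 in controls. The genotypes were apart, with a difference of 1.57 (SE 0.34, adjusted p = 0.178 in limma) that was 0.78 in the low-bioB arrays and 2.35 in the high-bioB arrays. Cyld, a tumour suppressor that removes ubiquitin chains, differed by 0.26 (SE 0.10) and Otulin by 0.48 (SE 0.21), and with the covariate Usp18 differed by 1.26, Cyld by 0.27 and Otulin by 0.21.

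No gene of the parallel branches passed over all genes in limma. Of 9 JNK branch genes 7 were negative (median -0.20), with Mapk8ip3, a JNK scaffold, at -0.38 (SE 0.12), Mapk8, the gene of JNK1, at -0.27 (SE 0.12) and Map2k4 at -0.20 (SE 0.098). With the macrophage covariate they were at -0.40, -0.20 and -0.093. In the low-bioB arrays they were at -0.58, -0.50 and -0.18, and in the high-bioB arrays at -0.18, -0.043 and -0.21. Of 8 ERK branch genes (median 0.027) 3 were higher and 2 lower at an unadjusted p under 0.05, where 5.84% of all genes were higher and 9.69% lower. Among the 5 were Sos1 at 0.44 (SE 0.16), Map2k2 at -0.30 (SE 0.11) and Map2k1 at -0.25 (SE 0.095), which the covariate left at 0.22, -0.19 and -0.14. Of 9 NF-kappaB branch genes (median -0.11, and 0.14 with the macrophage covariate) only Ikbkb, the kinase that TAK1 activates there, was at an unadjusted p under 0.05. It read 10.24, 10.23, 10.41 and 10.30 in mutants and 9.89, 9.98, 10.12 and 10.14 in controls, apart by 0.26 (SE 0.085, adjusted p = 0.2245 in limma). The other named genes of that list, Rel and Nfkbie, differed by -0.11 (SE 0.082) and -0.44 (SE 0.41), and with the covariate by -0.072 and, with the sign turned, 0.064. Above the cascade, the 6 TGF-beta receptors and ligands had a median of 0.33, with Tgfbr1, the receptor that binds TRAF6, at 0.41 (SE 0.13), Tgfb3 at -0.62 (SE 0.32) and Tgfbr3 at 0.46 (SE 0.27). With the macrophage covariate these were 0.23, -0.16 and 0.51, and the median of the 6 was 0.025.

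**Figure D4:**
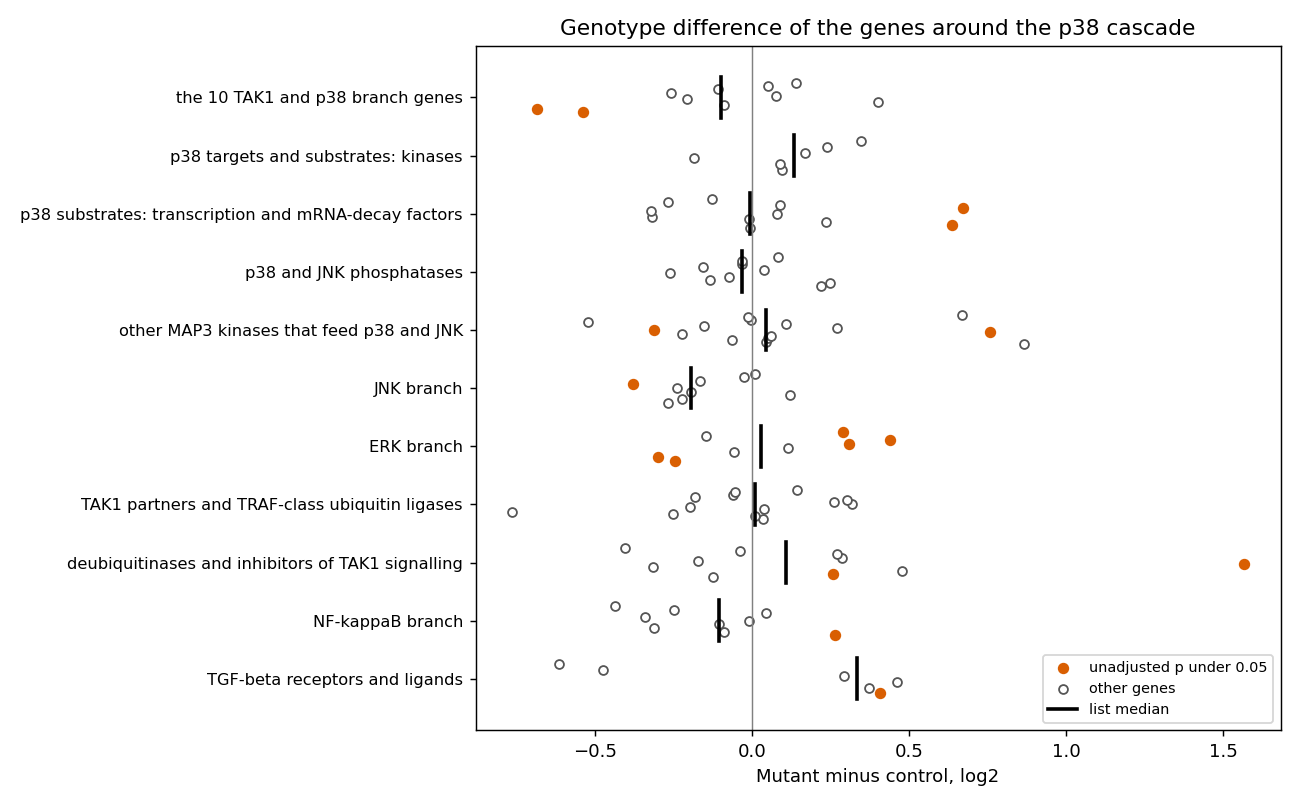
Mutant minus control log2 difference of each measured gene (points) in the 10 core genes and in 10 lists around the cascade, with the median of each list as a black bar and genes at an unadjusted p under 0.05 in orange. The medians run from -0.20 for the JNK branch to 0.33 for TGF-beta receptors and ligands, and the highest point is Usp18 at 1.57.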

How the data were processed

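Per the labels' protocols, biotin-labelled material made from total RNA of each culture went onto an Affymetrix array. The authors deposited log2 intensities, 1 per probe set and array, made with RMA per the submitters' processing notes; its version and a genome build are not given in the sources used here. Values ran from 3.21 to 15.18, with array medians of 6.90 to 6.96, and were used as deposited. The number of arrays limits the precision.

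Groups came from the sample titles. Of 45101 probe sets 34945 had exactly 1 gene symbol, and 34741 of these were named through RefSeq (GRCm38.p6). Array controls and probe sets naming no gene or more than 1 were not used. Each gene was represented by its brightest probe set. Differences (mutant minus control) were fitted over 18193 genes with limma 3.58.1 in R 4.3.3 (lmFit, eBayes, two-sided), without covariates, and p-values were Benjamini-Hochberg adjusted over all genes at 0.05. Further probe sets were fitted over all 34945. The 10 genes, the lists and the tests were chosen with earlier results of these data known. Named were all 10 members, up to 3 genes per list by smallest p, and the 3 genes most like Map3k7 and Mapk14.

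Each choice was also changed in turn: scaling between arrays, the probe set that stands for a gene, a filter on dim genes, eBayes settings, weights for arrays, terms for array sets split by spike-in level, the replicate number, a term for macrophage markers, the threshold, and the set of arrays. On simulated data for this comparison with 18193 genes, the fit found 80% of 100 genes given a log2 shift of 1. It found 97% of 100 given a shift of 2, and 11 of its 188 calls were false. Recovery in the arrays themselves was not tested. There 16 genes passed, and Usp18, at a difference of 1.57 (adjusted p = 0.178 in limma), did not. Promoter sequences are RefSeq's for GRCm38.p6.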

Additional observations from a re-analysis of the deposited data

Results flagged for a closer look

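Within a group of 4 arrays, a value was singled out where its gap to the nearest of the others, divided by the range of the group, exceeded Dixon's 95% critical value for 4 values. Chance does this in about 1 of 20 groups. Of 80 groups examined (the 10 members and 30 named pathway genes in each genotype) 10 held such a value.

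Mutant 4 was the array in 6 of them. It read 9.62 for Mapk13 (the other mutants 8.82 to 8.95), 10.51 for Mapk14 (11.27 to 11.43), 7.68 for Rps6ka5 (8.30 to 8.35), 9.98 for Zfp36 (9.77 to 9.78), 10.92 for Mef2a (11.79 to 11.94) and 7.22 for Mapk8ip3 (7.02 to 7.03). Its macrophage marker mean was 11.03, with 13.13 to 13.17 in the other mutants; the part of the markers in these values was not tested beyond the covariate fits.

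Map2k3 was singled out in both genotypes, with 10.58 in mutant 3 (the other mutants 10.88 to 10.93) and 11.55 in control 4 (10.84 to 10.91). Control 4 read 10.47 for Tgfbr3 (the other controls 11.37 to 11.52), and control 3 read 11.37 for Ppm1a (11.46 to 11.47).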

How the results depend on the processing

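None of the 10 genes passed the threshold in the fit of all arrays, and 3 did in some alternative: within the low-bioB arrays 3 members passed (Mapk11 -0.49, Mapk12 -0.80, Mapk14 0.50), without mutant 4 there were 2 (Mapk12 -0.83, Mapk14 0.61) and with array weights 1 (Mapk12 -0.77). These fits called 2085, 1316 and 1470 genes in all (11.5%, 7.23% and 8.08% of those tested). Map3k7, Tab1 and Traf6 kept their sign and their side of the threshold in every alternative run for them (ranges -0.43 to -0.05, -0.16 to -0.03 and 0.08 to 0.24), and Mapk11, Mapk12 and Mapk14 kept their sign (-0.69 to -0.25, -0.83 to -0.36 and 0.13 to 0.61). With 1 array left out Mapk12 ran from -0.83 to -0.54 and Mapk14 from 0.30 to 0.61. Small differences changed sign. Within the low-bioB arrays Map2k3 read 0.024, Map2k6 -0.057 and Tab2 -0.015, and with the macrophage mean in the model Mapk13 read 0.22, Map2k6 -0.029 and Tab2 -0.11. With 1 array left out Mapk13 ran from -0.27 without mutant 4 to 0.035 without control 4, Map2k6 from -0.00422 without mutant 3 to 0.13 and Tab2 from -0.00831 without control 3 to 0.13, with -0.00764 without control 4. The cause of these changes was not tested.

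The count of all genes past the threshold (16) was 3 with the probe set of highest variance, 0 with dim genes left out, 1470 with array weights, 2 with a block for the level of the labelling spike-ins, 2085 and 0 within the low-bioB and high-bioB arrays, 44 with the macrophage mean in the model, 41 at a threshold of 0.1, and 0 to 1316 with 1 array left out: leaving out mutant 4 gave 1316 and leaving out control 4 gave 31, while the count was 2 without control 2, 1 when either array 3 was omitted, and 0 when mutant 1, control 1 or mutant 2 was. Of the 97 pathway genes 13 passed with array weights, 16 within the low-bioB arrays, 7 without mutant 4 (Map3k10, Map3k11, Mef2a, Nras, Otulin, Sos1 and Tgfbr1) and 1 without control 4 (Zfp36; 0 to 7 with 1 array left out). List medians moved beyond the spread of the arrays in 3 cases: 0.19 for the transcription and mRNA-decay factors with the probe set of highest variance, 0.025 for TGF-beta receptors and ligands with the macrophage covariate, and, for the other MAP3 kinases with 1 array left out, -0.054 without control 4, the lowest, where the highest was 0.085. Neither quantile normalisation nor centring on the array median turned the sign of a member or of the 30 named pathway genes. They turned the sign of list medians near 0 (transcription and mRNA-decay factors, phosphatases, ERK branch and TAK1 partners). With the macrophage mean in the model the NF-kappaB branch median turned from -0.11 to 0.14, and over all alternatives the list medians kept 1 sign only for the p38 target kinases, the JNK branch and the TGF-beta receptors and ligands.

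Arrays of the 2 genotypes share the numbers 1 to 4, but pairing is not known. Deviations from the group means correlated by 0.47, 0.42, -0.09 and 0.37 for numbers 1 to 4. Not every array correlated best with its own number. With the replicate number as a block 0 genes passed in limma, and the Mapk12 difference stayed at -0.68 (adjusted p = 0.141). Further probe sets of Mapk14 and Map3k7 were put through the batch, block, covariate, weighting and left-out-array fits, an addition chosen after seeing the data. Leaving out genes in the dimmer part of the table removed Mapk11, Map2k6 and Traf6.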
